A study of Mus musculus with 13 samples.

Results

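The Chrna5-Chrna3-Chrnb4 nicotinic locus of the mouse is described here in the translating mRNA of cholinergic medial habenula neurons. Its 5 members were taken by gene symbol from the 23857 symbols that all immunopurified (IP) count tables share, and all 5 were also in the input table. They are the subunit genes Chrna3, Chrna5 and Chrnb4, and the neighbours Psma4 and Ireb2, which are expressed in most cells. Neuronal nicotinic receptors are pentameric cation channels opened by acetylcholine and by nicotine, and the medial habenula and its target, the interpeduncular nucleus, hold some of the highest densities of them in the brain. The α3 and β4 subunits form the receptor itself in these neurons, whereas α5 is an accessory subunit that joins receptors made by other subunits and changes their calcium permeability and desensitisation. The human counterpart of the region is associated with heavy smoking, and in rodents the habenular pathway limits nicotine intake.

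All mice were adults, older than 8 weeks, and carried the Chat-TRAP DW167 transgene, a single transgenic line in which cholinergic cells make a GFP-tagged ribosomal protein. Polysomes were pulled down from dissected medial habenula with anti-GFP beads (translating ribosome affinity purification, TRAP). There were 6 IP libraries of Chat-TRAP DW167 mice, called wild type here, 6 IP libraries of Gpr151-KO::Chat-TRAP DW167 mice, labelled as knockouts of the habenular orphan receptor Gpr151, and 1 library of total homogenate (input) of Chat-TRAP DW167 mice. Each library pooled 4 mice, or 3 for libraries 852 and 855, so each replicate is a separate pool of animals. The library numbers form 3 sets that hold both genotypes equally: 682 with 683, 852 with 855, and the 8 later libraries 1091 to 1094 and 1099 to 1102. Saline appears in the names of most tables, and saccharin in that of the input as well, whereas the labels give no treatment.

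Gene counts ran from 28375912 to 64388596 per IP library, and the input held 54701790. Gpr151 stood at 382 to 589 CPM (counts scaled to the library total) in wild type and at 121 to 212 CPM in every knockout library, and the test described further on put it -1.63 log2 units apart (SE 0.17; edgeR, adjusted p = 0.00592). Counts assigned to Gpr151 were thus lower but not absent in the knockout libraries, above the 66.2 CPM of the input. Counts per gene do not tell which part of the gene the reads cover, so intact mRNA was not shown. Of 12 medial habenula markers, 9 were at least 2-fold above input in every wild-type library, as were 3 of 4 cholinergic genes. By the same rule, given further on, 4.71% of 11434 genes were. Of the other habenula markers, Tac1 had a median log2 ratio of 1.21 but was not 2-fold above input in every library. Calb2 (-0.28) and Slc17a6 (-0.71) were below the input by median, as was the cholinergic gene Ache (-0.21). Markers of other cells were carried along in unequal amounts: the astrocyte markers summed to 154 to 976 CPM in wild type and 157 to 1768 CPM in knockout libraries, against 2135 CPM in the input, and the oligodendrocyte markers to 141 to 699 CPM and 200.2 to 1343 CPM, against 2851 CPM. The mean log2 CPM of 25 glial, microglial and vascular markers, called the non-neuronal level below, was highest in libraries 1099 (4.74), 1102 (4.30) and 1091 (3.86). Its group means of 2.45 ± 0.89 (wild type) and 3.09 ± 1.22 (knockout) were not separated by an exact two-sided permutation test (SD, n = 6 each, p = 0.314).

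The members lie together on chromosome 9 within 185 kb of GRCm38 (mm10, per the submitters' processing notes). By the GENCODE M21 annotation, Ireb2 (ENSMUSG00000032293.8) runs on the plus strand from 54863789 to 54912530 and Psma4 (ENSMUSG00000032301.13) from 54950790 to 54958030. Chrna5 (ENSMUSG00000035594.10) follows on the plus strand from 54980880 to 55007779. Chrna3 (ENSMUSG00000032303.7, 55010111 to 55026562) and Chrnb4 (ENSMUSG00000035200.7, 55028154 to 55048779) point the other way, on the minus strand. Chrna5 and Chrna3 therefore face each other with their 3′ ends, 2331 bp apart, and 1591 bp separate Chrna3 from Chrnb4. In RefSeq the spans of Chrna5 and Chrna3 overlap by 1304 bp. The annotation and the strand setting of the counting were not given in the sources used here. Reads from that stretch may therefore have been assigned to neither gene.

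Chrna3, which encodes the α3 subunit that lines the channel and holds part of the acetylcholine site, was among the most abundant mRNAs of the IP. The lowest, median and highest wild-type libraries had 1048, 1333 and 1698 CPM, the knockout libraries 808, 1382 and 1731 CPM, and the input 96.7 CPM from 4267 counts. Every IP library lay far above the input and the genotypes overlapped over most of their range, the lowest and the highest value both being knockout libraries (1099 and 1100). Chrnb4 encodes the β4 subunit that partners α3. Its lowest, median and highest values were 873, 1253 and 1536 CPM in wild type and 696, 1169 and 1701 CPM in knockout, against 106 CPM in the input. Again the genotypes overlapped, and libraries 1099, 1102 and 1091 were the lowest for both genes.

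Chrna5, the gene of the accessory α5 subunit, stood at another order of magnitude. Its lowest, median and highest values were 3.04, 5.51 and 7.08 CPM in wild type, from 144 to 309 counts, and 2.76, 4.29 and 6.41 CPM in knockout, from 134 to 327 counts. The input had 21 counts, or 0.476 CPM (95% exact interval 0.295 to 0.728, counting error only). All IP libraries were above that interval and the genotypes overlapped. As a limit of depth, the counting error of Chrna5 was up to 8.64% of a library's value, against at most 0.557% for Chrnb4 and 0.528% for Chrna3.

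**Figure D1:**
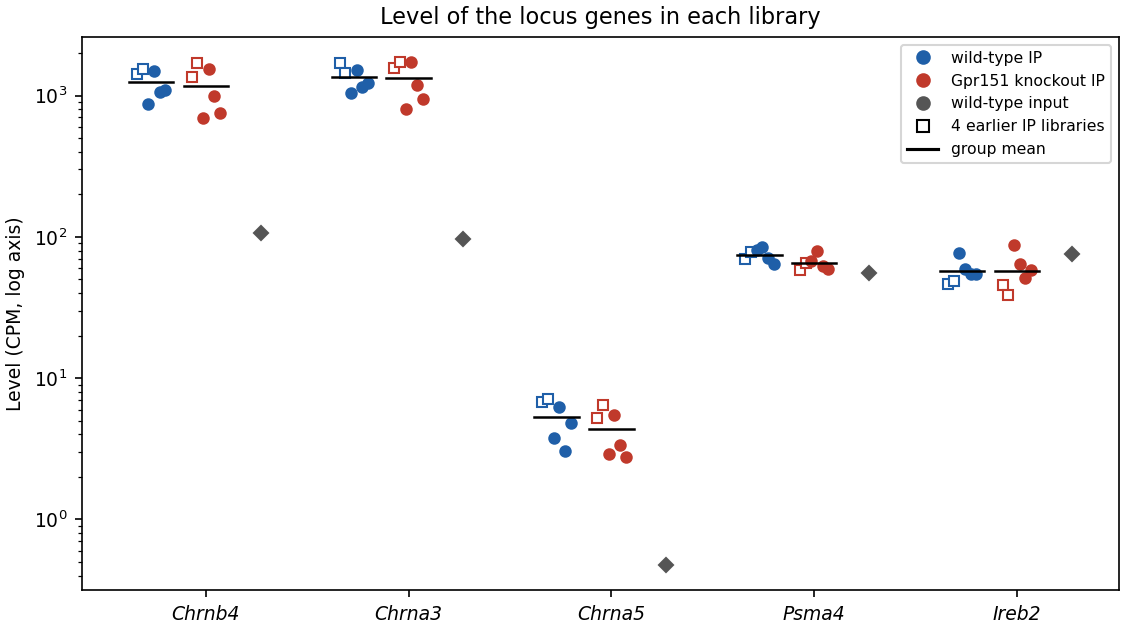
Level of each member in CPM (log axis, not divided by length) in 6 wild-type IP (blue), 6 knockout IP (red) and 1 input library (grey diamond). Points are libraries, open squares the 4 earlier ones and black bars group means; the subunit genes sit far above their input points in every IP library, Psma4 and Ireb2 close to theirs, and the genotypes overlap for every member.

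Levels of different genes were compared per kb of exon. On that scale Chrnb4 had 334 ± 72.8 CPM per kb in wild type (SD, n = 6) and ranked 61 among 22142 genes, Chrna3 had 255 ± 46.8 (rank 93), Psma4 31.5 ± 3.401 (rank 1489), Ireb2 6.005 ± 1.15 (rank 5971) and Chrna5 1.69 ± 0.531 (rank 9385). The order was the same in knockout, with ranks 62, 82, 1695, 5978 and 9937. In the input it was another one: Chrnb4 ranked 1625, Psma4 2026, Chrna3 2549, Ireb2 5299 and Chrna5 14407. The order of Chrnb4 and Chrna3 depends on the length used. Chrnb4 was above Chrna3 per kb in 12 of 12 IP libraries with all annotated exons as the length, but in 7 of 12 with the longest transcript, where the mean log2 ratio was 0.06 in place of 0.34 (SD 0.12 over libraries in both). Psma4 and Ireb2 rose to 64.1 and 9.86 CPM per kb in wild type with the longest transcript, which changed no place but that of Chrnb4 and Chrna3 in single IP libraries. In the input the longest transcript put Psma4 first (47.3 CPM per kb), ahead of Chrnb4 (28.6) and Chrna3 (22.2).

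Windows upstream of RefSeq starts of the 3 subunit genes are shown, whole or in part, on GRCm38.p6. They are not like regions, since that of Chrnb4 lies mostly within an annotated exon. Capitals mark matches on either strand to the GC box GGGCGG (reverse complement CCGCCC), which Sp factors bind, and in Chrnb4 to the CACCC box CCACCC (reverse complement GGGTGG), bound by Sp and Kruppel-like factors. The Chrna3 window is chr9:55026563-55026812 on the minus strand, directly upstream of the gene. Chrna5 has a first window at chr9:54980630-54980879 and, before a second RefSeq start, one at chr9:54981238-54981487, both on the plus strand. In the second, 32 bases lie in annotated exons, and only the longest stretch outside them is printed, chr9:54981248-54981465. Of the Chrnb4 window, 235 of 250 bases lie in an annotated exon, so only the stretches around its CACCC boxes are printed, chr9:55048755-55048784 and chr9:55048621-55048650 on the minus strand. Both boxes lie in that exon, downstream of the annotated 5′ end of the gene (55048779 in GENCODE, 55048953 in RefSeq).
Chrna3: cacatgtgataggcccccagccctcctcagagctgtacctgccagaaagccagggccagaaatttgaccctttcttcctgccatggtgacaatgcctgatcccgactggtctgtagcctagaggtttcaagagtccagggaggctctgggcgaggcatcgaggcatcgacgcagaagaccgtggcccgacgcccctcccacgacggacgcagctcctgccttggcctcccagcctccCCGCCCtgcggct
Chrna5, first start: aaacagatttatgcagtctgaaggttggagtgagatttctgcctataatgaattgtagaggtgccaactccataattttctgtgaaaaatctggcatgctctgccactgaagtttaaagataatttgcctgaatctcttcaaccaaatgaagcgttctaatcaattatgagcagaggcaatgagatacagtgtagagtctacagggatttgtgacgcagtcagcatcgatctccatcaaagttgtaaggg
Chrna5, second start: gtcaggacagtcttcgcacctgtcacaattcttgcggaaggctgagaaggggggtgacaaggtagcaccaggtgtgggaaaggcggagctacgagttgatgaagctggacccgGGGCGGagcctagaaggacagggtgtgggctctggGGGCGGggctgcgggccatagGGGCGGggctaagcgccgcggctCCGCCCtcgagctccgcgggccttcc
Chrnb4, first stretch: acaagagctagtCCACCCtcccgagtgcca
Chrnb4, second stretch: agtcctctaagtGGGTGGgacccacagcag

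Over whole windows of 250 bases, Chrna3 held 1 GC box at a GC content of 63.2%. The first Chrna5 window had none at 40% GC, and the second had 4 at 65.2% GC. Chrnb4 had no GC box and 2 CACCC boxes at 61.2% GC. Psma4 held 4 GC boxes (64.4% GC), with all 250 bases of its window in annotated exons, and Ireb2 2 (63.6% GC). Of 32851 RefSeq windows of this length, 32.7% hold a GC box and 28.1% a CACCC box, so either motif is common, and none of the 6 windows holds TATAAA, which 12.4% of windows do. These are letters in a window and no measure of binding, and the counts do not tell from which start of Chrna5 its reads came.

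All 3 subunit mRNAs were concentrated in the immunopurified fraction, whereas their housekeeping neighbours were not. With 1 input library there is no replicate of the input, and these ratios are described by size without a test. A gene was called enriched when all 6 libraries of a genotype were at least 2-fold above the input after adding 1 CPM, among genes with 5 CPM in the input or as the IP mean. In wild type 3 of the 5 members were enriched and none depleted, where 4.71% of 11434 genes were enriched and 11.1% depleted. Chrna5 met the minimum only through its IP mean, so its call follows in part from the filter and the count of 3 is no support for it. Chrna3, Chrnb4, Psma4 and Ireb2 met the minimum by their input level too. Fewer cells of a type and less RNA per cell cannot be told apart in such bulk samples.

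The lowest, median and highest log2 ratio of Chrna3 over input in wild type were 3.42, 3.77 and 4.12, and its median ranked 40 among the 11434 genes. Chrnb4 had 3.02, 3.53 and 3.84 (rank 50). Chrna5 had 1.45, 2.13 and 2.45 (rank 280), a value that the pseudocount lowers for so scarce an mRNA. With a pseudocount of 0.1 CPM its median was 3.27. From the counts of all 6 wild-type libraries, Chrna5 was 10.6-fold above the input (95% exact interval 6.87 to 17.1, counting error only), next to 13.6-fold for Chrna3 (13.2 to 14.01) and 11.3-fold for Chrnb4 (10.99 to 11.6). The interval of Chrna5 thus spans the folds of both other subunits.

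The knockout libraries gave a like picture against the same input: the median log2 ratio was 3.81 for Chrna3 and 3.43 for Chrnb4, so 2 of the 5 members were enriched and none depleted, where 3.41% of 11399 genes were enriched and 7.11% depleted. Chrna5 had a median of 1.82 and stood at least 2-fold above input in every knockout library, but its mean of 4.35 CPM was under the 5 CPM minimum, so it was not among the genes called. A fit of edgeR that adds the input to the 12 IP libraries, and takes the lone input to vary like them, put the wild-type log2 fold over input at 3.99 for Chrna3, 3.74 for Chrnb4 and 3.66 for Chrna5.

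Psma4 encodes an α-ring subunit of the 20S proteasome. Its lowest, median and highest values were 64.0, 74.1 and 85.3 CPM in wild type and 58.4, 63.5 and 79.9 CPM in knockout, against 55.1 CPM in the input. All 12 IP libraries were above the input by a small step, with a median log2 ratio of 0.42 in wild type and 0.20 in knockout (0.64 in wild type in the edgeR fit with the input). Exons at its start share 114 bases with the overlapping transcript AY074887, which had a mean of 0.261 CPM in wild type. The 13 other subunits of the 20S proteasome had a median log2 ratio of 0.03 over input, and none was enriched or depleted in wild type. Psmb7 was the highest of them at 0.69. Over all 11434 genes, 4.71% were enriched and 11.1% depleted.

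Ireb2 encodes iron regulatory protein 2, which binds mRNAs of iron storage and uptake and is itself degraded by the proteasome when iron is plentiful. It had 46.4, 54.7 and 77.1 CPM as the lowest, median and highest in wild type and 38.8, 54.6 and 87.8 CPM in knockout, against 75.1 CPM in the input. It was below the input in 5 of 6 libraries of each genotype (median log2 ratio -0.45 in wild type and -0.46 in knockout), and only libraries 1091 and 1099 were above it. The 4 earlier libraries had 38.8 to 49.0 CPM and the 8 later ones 51.1 to 87.8 CPM, without overlap. The set of libraries and the list of genes it was counted on cannot be told apart here. Ireb2 also rose with the non-neuronal level over the 12 IP libraries. Pearson r was 0.739 as they are and 0.518 with set means removed, and the part of that level was not tested. Of 12 other iron-handling genes with enough reads, Ftl1 (ferritin light chain, 2.29) and Cp (the ferroxidase ceruloplasmin, 1.59) were enriched, and Fth1 (ferritin heavy chain, -1.87) was depleted in wild type. Cp met the minimum only through its IP mean (13.4 CPM, against 3.76 CPM in the input). The shares over all 11434 genes were 4.71% enriched and 11.1% depleted.

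Along the chromosome, the contrast to input was steep. Of 23 other genes within 1 Mb of the members that all tables list, 15 had enough reads, and their median log2 ratio over input was -0.11, close to that of all genes (-0.07). Dnaja4, which encodes an Hsp40 co-chaperone, was the only enriched one (1.69). Tnfaip8l3 was the only depleted one (-1.43) and met the minimum only through the input (13.7 CPM). Among all genes 4.71% were enriched and 11.1% depleted. Hykk, the hydroxylysine kinase gene between Ireb2 and Psma4, stood at 0.72 with all 6 wild-type libraries above the input. The nearest gene beyond Chrnb4, Ube2q2, a ubiquitin-conjugating enzyme, stood at 0.50.

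**Figure D2:**
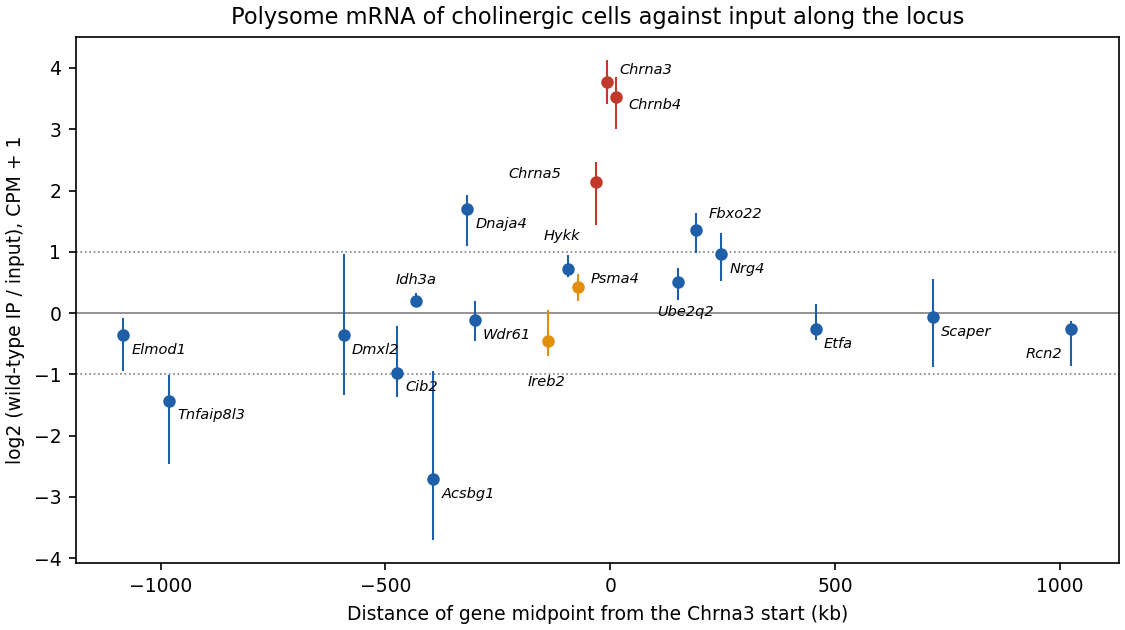
Median log2 ratio of wild-type IP over input (CPM plus 1) for members and neighbours with enough reads, against the distance of each gene's midpoint from the start of Chrna3 in kb (positive towards higher coordinates). Vertical lines span the 6 libraries, dotted lines mark 2-fold, red are the subunits, orange Psma4 and Ireb2 and blue the other genes; the 3 subunits stand above all their neighbours by median, from 2.13 to 3.77.

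Among the other nicotinic subunits, 4 had enough reads for a ratio. Chrnb3, the gene of the accessory β3 subunit, was enriched at 3.10, with 403 CPM in wild type and 41.7 CPM in the input. Chrnb2 (0.62), Chrna4 (-0.14) and Chrna7 (-0.37), the subunits of the main receptors of cortex and thalamus, were not. In that order their wild-type means were 114, 238 and 4.70 CPM, so Chrnb2 and Chrna4 were not scarce in the IP. Of 11 measured chaperones and modulators of nicotinic receptors none was enriched, where 4.71% of 11434 genes were, so 0 of 11 is near that share. Lypd6, Lypd1, Lypd6b and Vsnl1 were depleted, the last at -3.86, where 11.1% of all genes were. Lypd1 and Lypd6b met the minimum only through the input.

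No member passed the test between genotypes. Knockout and wild type were compared with the edgeR quasi-likelihood test over 14317 genes with a term for the library set. None of the 5 members was called in either direction, where 0.014% of genes (2, among them Gpr151) were. Of all genes 0.00698% were called lower in knockout, and 438 genes had an unadjusted p under 0.05. DESeq2 called 12 genes and no member. None of the 5 members had groups that did not overlap in CPM, where 0.147% of genes did.

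For Chrna3 the wild-type mean was 1345 ± 247 CPM and the knockout mean 1330 ± 405 CPM (SD over 6 libraries each), and the edgeR log2 fold change was -0.01 (SE 0.17, 95% interval -0.38 to 0.35). Chrnb4 had 1244 ± 271 and 1172 ± 420 CPM and a log2 fold change of -0.10 (SE 0.19, interval -0.50 to 0.31). Chrna5 had 5.28 ± 1.66 and 4.35 ± 1.54 CPM and -0.28 (SE 0.23, interval -0.77 to 0.22), the widest interval of the members. A change of 1 log2 unit lay outside the intervals of all 3 subunits, and changes inside an interval could not be told from none.

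Psma4, with 74.7 ± 8.06 and 65.5 ± 7.90 CPM, had -0.18 (SE 0.12, interval -0.43 to 0.08), and Ireb2, with 56.9 ± 10.9 and 57.6 ± 17.3 CPM, had 0.02 (SE 0.17, interval -0.34 to 0.38). The edgeR adjusted p was 0.999 for each of the 5, and between 0.748 and 1.00 over 22 alternative settings. The sign of Chrna3, Chrnb4 and Ireb2 turned when libraries 1091, 1099 and 1102, those with the most non-neuronal RNA, were left out, to 0.13, 0.05 and -0.06. The value of Chrna5 kept its sign but not its size, with -0.17 without those libraries, -0.14 without library 1092 alone and -0.43 without library 1100 alone. Whether the genotype effect differed between earlier and later libraries was examined through an edgeR interaction term, and no member passed (adjusted p = 1, unadjusted 0.420 to 0.975). By edgeR 0 of 14317 genes passed that test and 325 had an unadjusted p under 0.05.

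**Figure D3:**
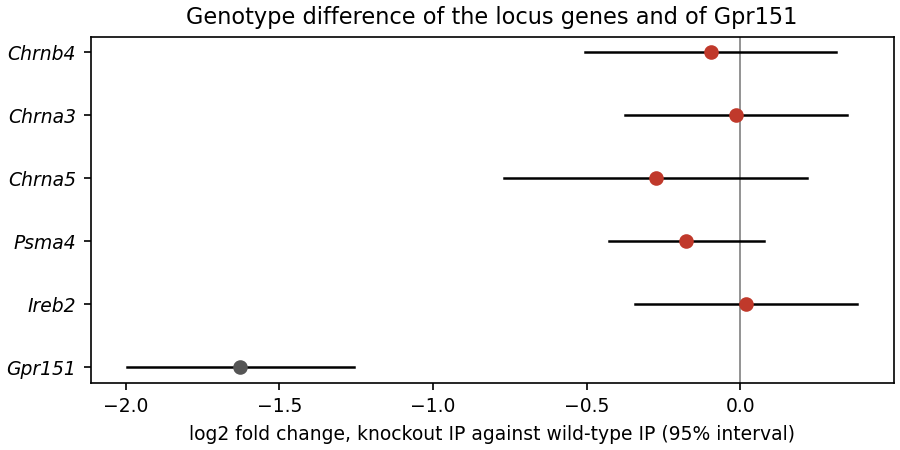
Log2 fold change of knockout over wild type for each member and for Gpr151, with 95% intervals from edgeR. The 5 members' intervals span 0, from -0.77 at the lowest to 0.38 at the highest, and Gpr151 lies at -1.63.

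Genes around the members and in their pathways gave no calls either. Of 18 tested neighbours within 1 Mb, none was called and their median log2 fold change was 0.04. The smallest p by edgeR were those of Acsbg1, a lipid-metabolism gene typical of astrocytes, with a log2 fold change of 1.29 (adjusted p = 0.999, unadjusted 0.0406), and of Nrg4, which encodes a neuregulin, with -0.35 (adjusted p = 0.999, unadjusted 0.120). None of 7 tested other nicotinic subunits was called (median 0.02, range -0.09 for Chrna7 to 0.41 for Chrna6). The same held for 11 chaperones and modulators (median 0.16, 10 above 0), 13 proteasome subunits (median -0.04) and 15 iron-handling genes (median 0.05). Over all 14317 tested genes the median log2 fold change was 0.0018 and its median size 0.12. Medial habenula markers were above 0 in 1 of 12 tested cases and cholinergic genes in 1 of 4. Choroid plexus and ependymal markers were above 0 in 6 of 6, and lateral habenula and thalamic ones in 6 of 8. Endothelial and mural markers were above 0 in 6 of 7 and microglial ones in 5 of 7. Astrocyte, oligodendrocyte and GABAergic markers were above 0 in 8 of 8, 8 of 8 and 6 of 6 tested cases, and none passed the threshold. Their part in the values of the members was not tested between genotypes beyond the setting that has the non-neuronal level as a covariate, which gave log2 fold changes of 0.16 for Chrna3, 0.13 for Chrnb4, -0.0811 for Chrna5, -0.15 for Psma4 and -0.11 for Ireb2.

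Of 7 tested factors that are described to act on the promoters of the cluster, none was called. Pou4f1, a POU factor of habenular neurons, was the only enriched one, at 2.74 over input, and had a log2 fold change of -0.27 (unadjusted p = 0.0638). Jun was depleted in the IP of wild type (-2.12) and had 0.68 (unadjusted p = 0.0307). The GC-box binding factors Sp1 and Sp3 had 36.0 and 69.7 CPM in wild type and ratios of -0.80 and -0.25 over input.

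Ratios within a library do not depend on its total, and so show the make-up of the cluster more closely than levels do. Per kb of exon, Chrna3 exceeded Chrna5 by 121-fold (library 852) to 224-fold (library 1093) in the 12 IP libraries, and by 121-fold in the input. These folds depend on the GENCODE exon lengths used, 3126 bp for Chrna5 and 5265 bp for Chrna3. RefSeq ends Chrna5 further on, at 55011420 in place of 55007779, and the annotation of the counting is not known. As a log2 ratio, Chrna5 over Chrna3 had a wild-type mean of -7.29 ± 0.29 and a knockout mean of -7.52 ± 0.16 (SD, n = 6 each), a difference of -0.23 with an exact permutation p = 0.117 (two-sided, Benjamini-Hochberg adjusted over 6 ratios 0.523). The smallest p such a comparison allows is 0.00216. The genotypes overlapped, since library 1093, a wild-type one, had the lowest ratio of all.

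The difference in the Chrna5 to Chrna3 ratio had the same sign in each set of libraries, with -0.27 between 683 and 682, -0.40 between 855 and 852, and -0.18 over the later 8 (exact permutation p = 0.314, smallest possible 0.0286). Permuting within sets gave p = 0.0929 by the exact permutation test. Its size moved with single libraries. Without library 852 the difference was -0.16 (exact permutation p = 0.225), and without library 1093 it was -0.34 (exact permutation p = 0.00866, unadjusted). That of Chrna5 over Chrnb4, which was -0.15 with all libraries (exact permutation p = 0.221), became -0.26 without library 1093 (exact permutation p = 0.00433, unadjusted). Leaving out any other 1 of the 12 libraries left the exact permutation p of both ratios above 0.05.

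The ratio of Chrnb4 to Chrna3 was the steadiest, with a SD of 0.12 over the 12 IP libraries, while the level of Chrna3 had a SD of 0.33 and that of Chrnb4 0.40 in log2 CPM. Its wild-type mean was 0.38 ± 0.14 and its knockout mean 0.30 ± 0.11 (SD, n = 6 each), with p = 0.288 by the exact permutation test. In the input it was 0.64, above all 12 IP libraries, the nearest being library 852 at 0.59. The input also held more Chrna5 per Chrna3 than each of the 12 (-6.91), with library 852 next at -6.92. With 21 counts of Chrna5 in the input, the interval of that ratio (0.00513 to 0.0127 Chrna5 per Chrna3, 95% exact, counting error only) takes in the values of 9 of the 12 IP libraries. The input was also counted on another list of genes, with 3.98% ambiguous alignments against 0.581% to 1.36% in the IP libraries. Input and list of genes cannot be told apart here, and the effect of the list on these ratios was not tested. Against Chrna3, Psma4 and Ireb2 were low in the IP (log2 -3.01 and -5.41 in wild type) and far higher in the input (0.34 and -1.21), and neither ratio passed between genotypes (exact permutation p = 0.552 and 0.918).

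**Figure D4:**
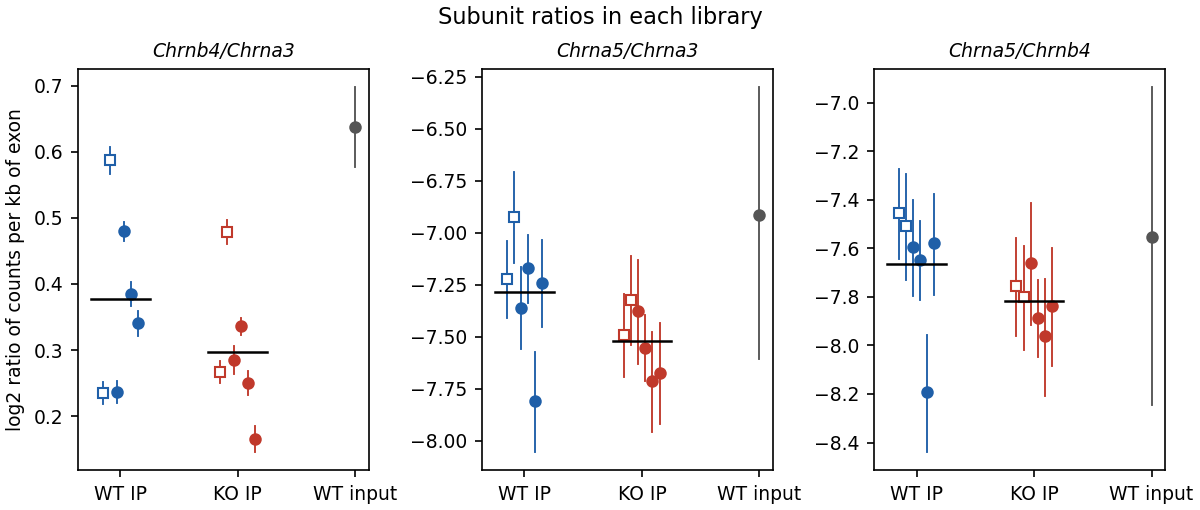
Log2 ratios between the subunits per kb of exon in each library (blue wild-type IP, red knockout IP, grey input), with 95% exact counting intervals as bars, open squares for the 4 earlier libraries and black lines for group means. The Chrnb4 to Chrna3 ratio spans 0.17 to 0.59 in the IP libraries, and the low wild-type point in both Chrna5 ratios is library 1093.

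Chrna3 and Chrnb4 varied together from library to library. Over the 8 later libraries, which share 1 set and 1 list of genes, the TMM-scaled log2 CPM of Chrna3 and Chrnb4 had Pearson r = 0.979 (exact permutation p = 0.000124, adjusted over 10 pairs 0.00124, n = 8) and Spearman rho = 0.976 (exact permutation, adjusted p = 0.00397). Without libraries 1092 and 1100, farthest from the median of Chrna3, r was 0.939, and over 12 libraries with set means removed it was 0.973. Chrna5 followed less closely, with r = 0.845 to Chrna3 and 0.868 to Chrnb4 (exact permutation, adjusted p = 0.0226 for both). Those relations rest on libraries 1092 and 1100, since without them r was 0.550 and 0.540, and their rho of 0.810 and 0.762 did not pass after adjustment (exact permutation p = 0.109 and 0.123). Psma4 and Ireb2 gave r from -0.43 to 0.61 with the subunits and with each other, none of them past the threshold.

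The subunits also fell as the non-neuronal level of a library rose. Against that level, r was -0.899 for Chrna3 (exact permutation, adjusted over 5 members p = 0.00694, n = 8), -0.951 for Chrnb4 (0.00112) and -0.788 for Chrna5 (0.0391), with rho of -0.952, -0.976 and -0.786. It was -0.352 for Psma4 and 0.586 for Ireb2 (exact permutation, adjusted p = 0.381 and 0.163). Without libraries 1092 and 1099, farthest from the median level, r was -0.802 for Chrna3, -0.908 for Chrnb4 and -0.621 for Chrna5. All of these are shares of 1 library total, so a rise of one group of genes lowers the others in part by construction, and the contribution of non-neuronal RNA to the shared variation of the subunits was not tested apart from it. The Chrnb4 to Chrna3 ratio, which does not depend on the total, also fell with the non-neuronal level, a relation looked for after the values were seen. Its r was -0.815 (exact permutation, adjusted over 3 ratios p = 0.0420, n = 8) and -0.900 without libraries 1092 and 1099, whereas its rho of -0.762 did not pass (exact permutation, adjusted p = 0.110). Over the 12 IP libraries r was -0.619 as they are and -0.809 with set means removed. Libraries 682 and 683, a set of their own, had low non-neuronal levels (1.89 and 1.81) and low log2 ratios (0.23 and 0.27). The input, with the highest sums of astrocyte and oligodendrocyte markers, had the highest log2 ratio (0.64). Over the 8 later libraries, the ratios of Chrna5 gave r = -0.218 to Chrna3 and 0.133 to Chrnb4 against the non-neuronal level.

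**Figure D5:**
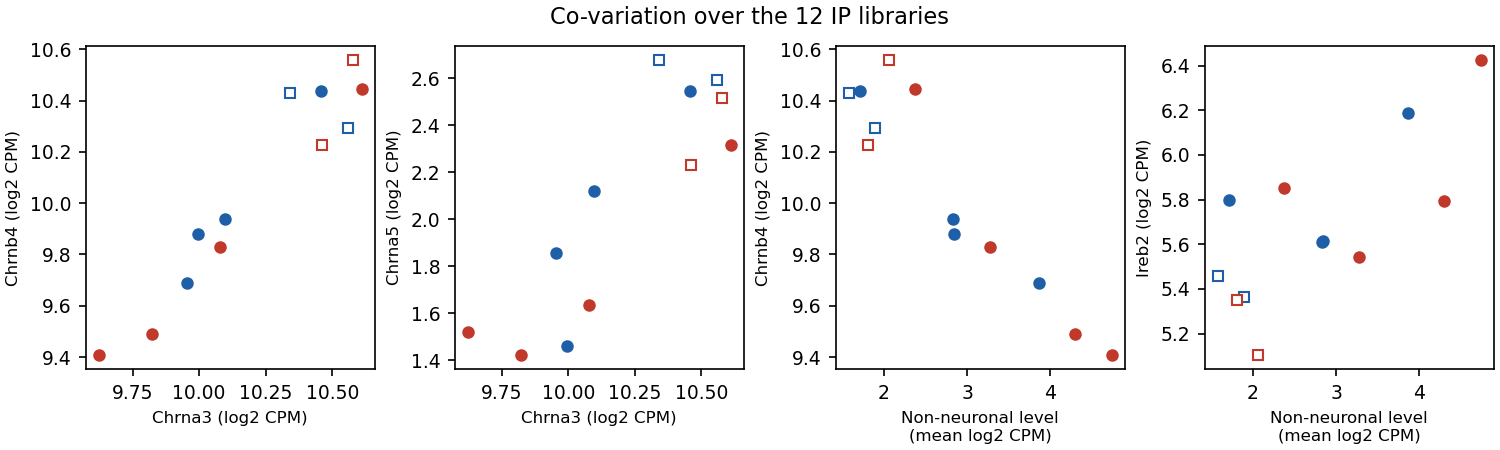
Log2 CPM of the members in the 12 IP libraries (blue wild type, red knockout, open squares the 4 earlier libraries). Chrnb4 and Chrna5 are plotted against Chrna3, and Chrnb4 and Ireb2 against the non-neuronal level; over the 8 later libraries r is 0.979 between Chrna3 and Chrnb4 and -0.951 between Chrnb4 and the non-neuronal level.

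The genes whose pattern over the 12 IP libraries was most like that of each subunit were ranked by Pearson r after removing set means, among genes with a mean of 5 CPM or more. For Chrna3 they were Tspan13, a tetraspanin (0.983), Lrrc55, an auxiliary subunit of BK potassium channels (0.979), Fam96a (0.977), Mzt1 (0.976) and Chrnb4 (0.973), among 10392 genes. For Chrnb4 they were Sostdc1, a secreted antagonist of BMP and Wnt signals (0.989), Dad1 (0.987), Lrrc55 (0.987), Tspan13 (0.985) and Gabbr1, a GABA-B receptor subunit (0.985), with Chrna3 in place 23. For Chrna5 they were Tmem200c (0.938), 1110059E24Rik (0.933), Txndc9 (0.932), Lyrm5 (0.914) and the glutaredoxin gene Glrx (0.905), with Chrnb4 in place 84 and Chrna3 in place 213. These r values describe 12 libraries that differ in their non-neuronal level, and Psma4 ranked 4092 and Ireb2 7484 for Chrna3 by the same measure.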

How the data were processed

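The deposited values were raw counts per gene symbol, 1 table per library, which the authors made with STAR 2.3.0e and HTSeq on mm10, per the submitters' processing notes; cDNA was made with the Ovation V2 kit ahead of TruSeq Nano preparation, per the labels' protocols. The tables listed 32532 symbols in the 4 earlier IP libraries, 24454 in the 8 later ones and 37328 in the input, and the share of alignments ambiguous between genes was 3.98% (input), 1.30% to 1.36% (earlier IP) and 0.581% to 0.714% (later IP). Summary lines that name no gene were dropped. CPM was computed over the 22682 symbols in all 13 tables; 3 counts, the limit a count of 0 allows, were 0.0502 to 0.121 CPM in IP libraries and 0.0680 in the input, counting error only. Lengths and positions came from GENCODE M21. Groups followed the labels. Over 12 replicate pairs, chi-square divided by its degrees of freedom was 17.8 to 556, so no pair looked like 1 library deposited in duplicate.

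Genotypes were compared over the 23857 symbols of all 12 IP tables with edgeR 4.0.16 in R 4.3.3 (filterByExpr, minimum count 10 and total 15; TMM; robust quasi-likelihood test; library set as a term; Benjamini-Hochberg threshold 0.05), tested on simulated data, with DESeq2 1.42.0 as an alternative. Ratios and correlations used exact permutation tests over libraries. Log2 CPM had a prior count of 2. The members and gene lists were chosen with earlier results of these data known. Named genes were the members, Gpr151, the 5 genes most like each subunit, genes lying between the members, and, per list, those past the threshold or else up to 2 with the smallest p; genes named for their ratio over input, and other list members named by level, were chosen after their values were seen.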

Additional observations from a re-analysis of the deposited data

Results flagged for a closer look

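Library 1093, a wild-type IP pool, stood apart in the ratio of Chrna5 to Chrnb4. Its log2 ratio per kb was -8.19, against -7.65 to -7.46 in the other 5 wild-type libraries and -7.96 to -7.66 in knockout. The gap to its neighbour was 0.738 of the range of the group, above Dixon's limit of 0.625 for 6 values. Among 22 groups of values examined it was the only one past that limit, and chance alone passes it in about 1 of 20 groups. Its 144 Chrna5 counts were the fewest of the wild type, while its Chrna3 (1148 CPM) and Chrnb4 (1060 CPM) lay within the range of the others. Its non-neuronal level was 2.84, in the middle of the later libraries. The cause was not tested.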

How the results depend on the processing

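Depth limits Chrna5 most, with 134 to 327 counts per IP library and 21 in the input, and the lone input limits every ratio over it. Between genotypes, the log2 fold changes of Chrna5 and Psma4 kept their sign in all 22 alternatives and no member passed in any. Those near 0 turned: with the 4 earlier libraries alone they were 0.0649 for Chrna3, 0.0266 for Chrnb4 and -0.19 for Ireb2, without libraries 1091, 1099 and 1102 they were 0.13, 0.0488 and -0.0638, and with the non-neuronal level as a covariate 0.16, 0.13 and -0.11. Chrna5 moved from -0.28 to -0.0811 with that covariate. Leaving out 1 library gave -0.16 to 0.0653 for Chrna3, -0.26 to 0.0193 for Chrnb4, -0.13 to 0.10 for Ireb2, -0.43 to -0.14 for Chrna5 and -0.23 to -0.14 for Psma4. The count of genes called, 2, was 12 with DESeq2, 1 with the filter of 1 CPM in 6 libraries, 0 with the 8 later libraries alone (331 at an unadjusted p under 0.05), 1 without libraries 1091, 1099 and 1102, and 0 to 2 with 1 library left out, 0 being without library 683. In the settings with 0 genes called Gpr151 was not called either, so the lack of a call for a member tells little there. The causes were not tested.

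The difference in the Ireb2 to Chrna3 ratio, 0.04, became -0.25 without libraries 1091, 1099 and 1102 and ran from -0.22 to 0.24 with 1 library left out. That of Chrna5 to Chrna3 ran from -0.34 to -0.16 and that of Chrna5 to Chrnb4 from -0.26 to -0.11, the lowest in both being without library 1093. Over the 12 libraries as they are, r was 0.0423 for Chrna3 and Psma4, -0.682 for Chrna3 and Ireb2, 0.233 for Chrna5 and Psma4, -0.524 for Chrna5 and Ireb2, 0.146 for Chrnb4 and Psma4 and -0.667 for Chrnb4 and Ireb2. With 1 later library left out, these r ran from 0.233 to 0.589, -0.573 to 0.0131, 0.384 to 0.785, -0.270 to 0.206, 0.238 to 0.675 and -0.504 to -0.0551 in that order, and from 0.359 to 0.712 for Psma4 and Ireb2. Against the non-neuronal level they ran from -0.550 to -0.0106 for Psma4, 0.259 to 0.685 for Ireb2, -0.422 to 0.177 for Chrna5 over Chrna3 and -0.0245 to 0.398 for Chrna5 over Chrnb4.

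Against the input, the median log2 ratio of Chrna5 moved to 3.27 in wild type and 2.90 in knockout with a pseudocount of 0.1 CPM, and to 3.66 in wild type in the edgeR fit with the input. That of Psma4 moved to 0.59 in wild type and 0.38 in knockout with TMM scaling, and to 0.64 in wild type in that fit. With the longest transcript as length, Chrna3 had 309 CPM per kb in wild type, Psma4 64.1 and 56.2 and Ireb2 9.86 and 9.98 in wild type and knockout. Replicate numbers follow accession order and pair no samples, so blocking was by library set, which the fit of genotypes includes. Without the set term 2 genes were called as well, and no member.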
